A study of Mus musculus with 5 samples.

Results

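The miRNA content of a 3-day-old wound was set against that of unwounded back skin in aged mice. Total RNA came from back skin of 2-year-old female mice with the hair follicles in telogen, the resting phase of the hair cycle. A first array held unwounded skin (D0) and another held skin taken on day 3 (D3) after a 3 mm punch had removed the full thickness of the skin. Further arrays held D5 and D7 wounds of 2-year-old mice and unwounded skin of 8-week-old female mice, and they entered the normalization and are otherwise used below for levels and counts beside those of D3. The labels give no strain and do not say how many animals went into an array. Each condition is 1 array of 5, so no difference was tested, and a difference between D3 and D0 cannot be told apart from one between animals or between arrays.

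A miRNA was taken as bright when its mean scanned intensity over 2 repeat spots exceeded, at D0 or at D3, 2 times the 95th percentile that the empty spots of that array gave. This held for 345 of the 1900 mouse miRNAs on the array. Of these, 207 were bright on both arrays, 135 at D3 only and 3 at D0 only. The limit was an intensity of 211 at D0 and 117 at D3, and 36 of the 135 were above 211 at D3. The 3 miRNAs just inside the limit were miR-188-5p, miR-134-5p and miR-194-5p, with scanned D3 intensities of 117 each and ratios of 1.24, 1.29 and 0.806. Just outside it were miR-340-3p, miR-434-3p and miR-681, with 117, 116 and 115 at D3 and ratios of 1.70, 1.40 and 0.857.

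A mature miRNA is a short RNA cut from a hairpin precursor, and either arm of the hairpin, 5p or 3p, can be kept. It pairs with messenger RNAs mainly through its seed, bases 2 to 8, and lowers the protein made from them, so miRNAs with 1 seed are grouped as a family. In early wounds, leukocytes enter the tissue and keratinocytes at the edge begin to migrate. Many miRNAs are typical of 1 cell type, such as miR-223 in myeloid cells, miR-205 in keratinocytes and miR-206 in skeletal muscle. A thin sheet of skeletal muscle, the panniculus carnosus, lies under mouse back skin.

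The sequences below belong to the miRNAs on which the results turn. They are RefSeq's, on the GRCm38.p6 assembly, and capitals mark the seed. Name and sequence matched RefSeq for 284 of the 345 bright miRNAs. The first set holds the highest ratio, miR-30c-1-3p, its near copy from the other miR-30c hairpin, and the guide arm that both hairpins give.
miR-30c-1-3p: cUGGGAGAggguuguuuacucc
miR-30c-2-3p: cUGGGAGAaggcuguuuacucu
miR-30c-5p: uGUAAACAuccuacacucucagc
miR-30c-1-3p lies at chr4:120769546-120769567 on the minus strand, within the span of the protein-coding gene Nfyc. miR-30c-2-3p lies at chr1:23291754-23291775 on the plus strand. Of the other high ratios outside the blood-cell miRNAs, 5 are shown, 4 of them rich in G beside miR-665-3p.
miR-711: gGGACCCGgggagagauguaag
miR-6931-5p: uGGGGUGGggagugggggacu
miR-762: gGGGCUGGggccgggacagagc
miR-5126: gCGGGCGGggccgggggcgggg
miR-665-3p: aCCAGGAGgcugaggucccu
miR-711 lies at chr9:108969970-108969991, plus strand, within the span of Col7a1, the gene of the anchoring-fibril collagen of skin. miR-762 lies at chr7:127708534-127708555, plus strand, within Bcl7c, and miR-6931-5p at chr11:102999896-102999916, minus strand, within Dcakd. miR-5126 is found at chr1:84695890-84695911, plus strand, within Dner. miR-665-3p is found at chr12:109586368-109586387, plus strand, within Rtl1. The next set holds the miRNAs of blood cells and inflammation that were higher at D3.
miR-223-3p: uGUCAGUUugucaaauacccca
miR-142a-5p: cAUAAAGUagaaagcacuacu
miR-142a-3p: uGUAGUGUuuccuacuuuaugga
miR-21a-5p: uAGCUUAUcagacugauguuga
miR-223-3p lies at chrX:96242884-96242905 on the plus strand and miR-21a-5p at chr11:86584120-86584141 on the minus strand, within Vmp1. Both arms of miR-142a lie on the plus strand of chromosome 11, the 5p arm at chr11:87756867-87756887. The lowest ratios and the split of the miR-133b arms are represented by 4 sequences.
miR-206-3p: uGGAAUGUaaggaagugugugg
miR-133b-3p: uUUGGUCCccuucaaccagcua
miR-133b-5p: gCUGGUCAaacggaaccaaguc
miR-31-5p: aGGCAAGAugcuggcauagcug
miR-206-3p at chr1:20679055-20679076 and miR-133b-3p at chr1:20682834-20682855 share the plus strand and the long non-coding RNA gene Lincmd1. miR-31-5p lies at chr4:88910614-88910635 on the minus strand. The miR-200 family is shown because near-identical members differed in direction.
miR-200b-3p: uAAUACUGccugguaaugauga
miR-429-3p: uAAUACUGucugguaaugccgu
miR-200c-3p: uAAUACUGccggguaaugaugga
miR-200a-3p: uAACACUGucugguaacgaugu
miR-141-3p: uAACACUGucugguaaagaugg
miR-429-3p, miR-200a-3p and miR-200b-3p come from a stretch of the minus strand from base 156053916 to 156055706 of chromosome 4. miR-141-3p and miR-200c-3p come from chromosome 6, at chr6:124717917-124717938 and chr6:124718324-124718346, both on the minus strand. The miR-378 members below were lower with near-identical sequences, and the 3 let-7 members include the lowest and the highest ratio of that list.
miR-378b: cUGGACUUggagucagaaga
miR-378c: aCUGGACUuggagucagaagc
miR-378d: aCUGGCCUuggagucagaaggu
let-7b-5p: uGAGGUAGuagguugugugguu
let-7e-5p: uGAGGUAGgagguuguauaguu
let-7i-5p: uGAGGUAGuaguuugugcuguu
The last set pairs miRNAs that share a seed, the miR-146 pair with opposite directions and the miR-3473 pair with 1 direction.
miR-146a-5p: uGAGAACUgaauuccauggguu
miR-146b-5p: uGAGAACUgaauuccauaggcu
miR-3473b: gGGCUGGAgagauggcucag
miR-3473e: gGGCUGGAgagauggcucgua

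At D3, 3 leukocyte miRNAs, miR-21a-5p and many G-rich miRNAs were at least 2-fold higher. The 3 leukocyte miRNAs were bright at D3 only, and miR-142a-3p among them had 0.616 against unwounded 8-week-old skin. At least 2-fold lower were 5 of 6 bright skeletal muscle miRNAs, all 5 of the miR-378 list and 3 of 5 bright keratinocyte miRNAs outside the miR-200 family. Intensities were background corrected and quantile normalized over the 5 arrays, and the ratio is the normalized D3 intensity over the normalized D0 intensity. Of the 345 bright miRNAs, 61 had a D3 level at least 2-fold above D0 (17.7%), 44 had one at least 2-fold below it (12.8%), and 240 lay within 2-fold. Ratios ran from 0.190 to 27.1 with a median of 0.967. In all 61 and all 44 both repeat spots gave the same direction, and in 55 and 38 of them both spots were past 2-fold. The SD of a log2 ratio from the repeat spots was 0.18, which covers spread within the arrays and nothing else.

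The D3 array alone made 31 of the 61 higher miRNAs bright, and these passed the brightness limit through the array on which they are high. Of these 31, 24 were above the D0 limit of 211 at D3. Among the 207 miRNAs bright on both arrays, 30 were past 2-fold upward (14.5%) and 41 past 2-fold downward (19.8%), with a median of 0.781. The balance of the counts moved with the scaling, from 61 higher and 44 lower to 26 and 111 with the spike calibration controls, 84 and 28 with the median of all miRNA probes, 52 and 57 with the 75th percentile, 65 and 30 with cyclic loess, and 111 and 43 in the authors' processed values. Over 10 scalings, the authors' values included, 60 of the 61 stayed above 1 and 26 stayed at least 2-fold higher. The exception was miR-3095-3p, with 0.945 at its lowest. All 44 lower miRNAs stayed below 1 under these scalings and 22 stayed at least 2-fold lower. The median ratio of the bright miRNAs moved between 0.618 with the spike calibration controls and 1.30 with the median of all probes, and each ratio is best read against it.

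**Figure D1:**
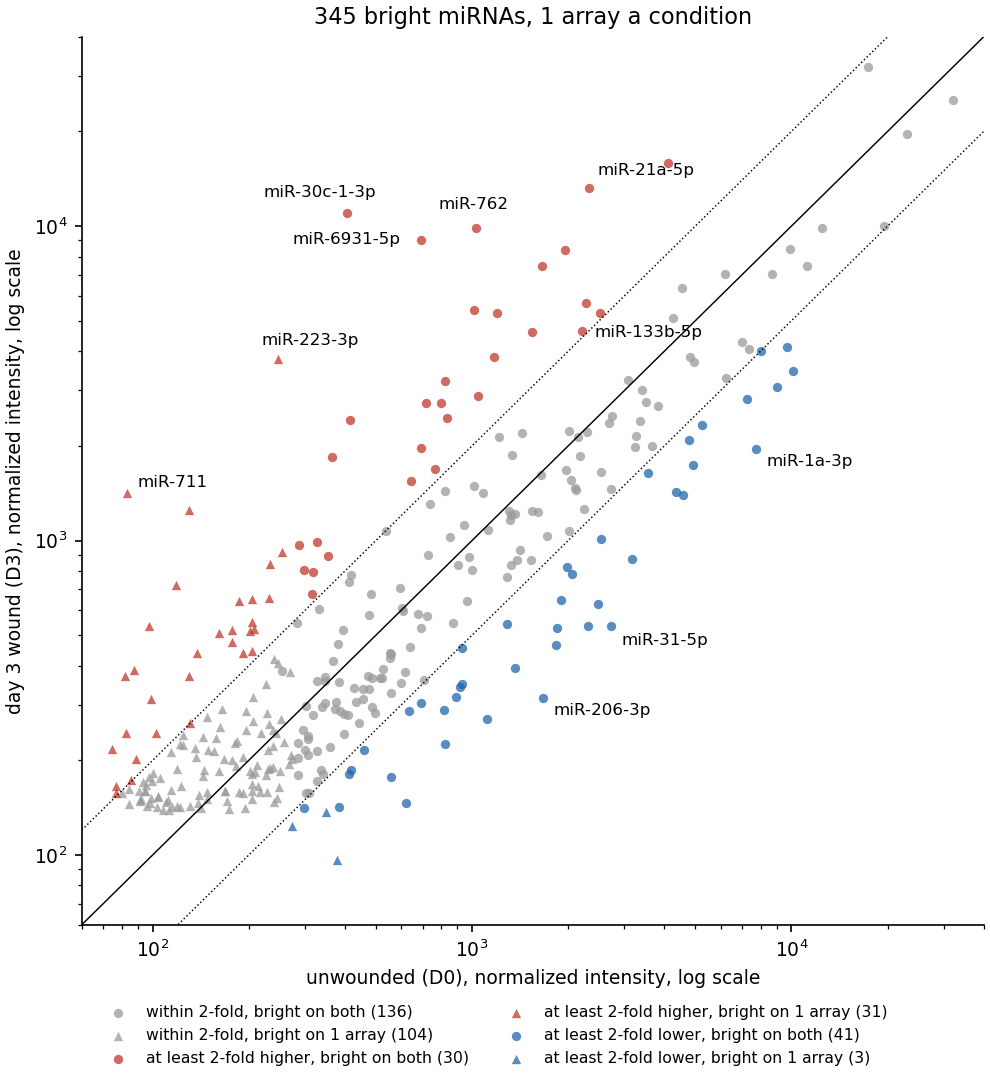
Normalized intensity at D3 (vertical) against that at D0 (horizontal), both on log scales, for the 345 bright miRNAs, 1 array a condition; the solid line marks equal values, the dotted lines 2-fold, and triangles are miRNAs bright on 1 array only. The higher miRNAs spread up to 27.1-fold above the line, and 31 of the 61 are triangles at the dim end of D0.

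The arrays themselves differed. The 95th percentile over empty spots was an intensity of 105 at D0, which 589 miRNAs exceeded, and 58.3 at D3, which 1768 exceeded. Scanned D3 over D0 ratios of the 11 spike calibration controls ran from 1.16 to 2.20 with a median of 1.63. The 5 probes for 5S ribosomal RNA had a median of 1.04 and the 207 miRNAs bright on both arrays a median of 0.809. Thus the controls and the miRNAs gave different zero points, and a ratio near 1 has no fixed direction here. The labelled tissue was checked against its markers. The keratinocyte miRNAs miR-205-5p and miR-203-3p were bright on both arrays, at no less than 3173 scanned units. None of 4 miRNAs of liver, brain, neurons and heart was bright, and the highest of them scanned 103 at D0 and 62.5 at D3.

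Of the 10 brightest at D0, 7 were among the 10 brightest at D3: miR-6239, miR-341-5p, miR-709, miR-690, miR-205-5p, miR-7028-5p and miR-26a-5p. miR-24-3p, miR-133a-3p and miR-23a-3p left this group, with ratios of 0.668, 0.342 and 0.855. miR-5126, miR-21a-5p and miR-30c-1-3p entered it. The ratio of 1.0 for miR-6239 and for miR-341-5p follows from quantile normalization, which gives the same value to the same rank.

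miR-30c-1-3p, the passenger arm of miR-30c, had the highest ratio. Its normalized intensity was 406 at D0 and 10983 at D3, a ratio of 27.1, with 25.4 and 28.9 from the separate spots and 17.8 to 47.8 over the scalings. miR-30c-2-3p, whose seed is the same and whose sequence differs by 3 edits, had 87.4 at D0 and 388 at D3. It was not above the empty spots at D0, and was at least 4.27-fold higher. Over the scalings its ratio was 2.19 at the lowest. Such a bound applies to the quantile normalization alone. It divides the D3 value by the larger of the lowest detected D0 value and the D0 value of the probe itself. The guide arm miR-30c-5p, cut from the same hairpins, went the other way, from 4769 to 2086, a ratio of 0.437. The other 4 guide arms of the miR-30 family had ratios of 0.611 to 0.855, so that all 5 lay below 1, miR-30d-5p not under every scaling (up to 1.05). The remaining 4 passenger arms of the list were not bright.

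miR-711 had 83.0 at D0 and 1412 at D3 and was not above the empty spots at D0. It was at least 15.5-fold higher with the quantile normalization, but its ratio was 7.24 at the lowest over the scalings. miR-6931-5p had 694 and 9018, a ratio of 13.0. miR-762 had 1029 and 9853, a ratio of 9.58. These 3 were past 2-fold on both spots and under each scaling, the lowest value being 5.61 for miR-762. miR-665-3p, from the imprinted Dlk1-Dio3 region, had 130 and 1248, a ratio of 9.58 with 7.84 and 11.7 from its spots. Its bright neighbours miR-127-3p and miR-3070-2-3p had 0.781 and 0.662. The Dlk1-Dio3 list, which does not include miR-665-3p, had 5 bright members of 19. Of these, 0 were at least 2-fold higher (17.7% of all bright miRNAs were) and 0 at least 2-fold lower (12.8% were). Their median was 0.818, and 0.638 to 1.34 over the scalings. miR-7221-3p, miR-7036a-5p, miR-1224-5p and miR-6944-5p had ratios between 5.09 and 5.79. miR-3960, miR-2861, miR-2137, miR-5126 and miR-705 had 3.83 to 4.52. Other miRNAs lay in this range too, such as miR-3473e with 4.45. miR-5126 was bright at D0 already, with 4105 against 15922 at D3.

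**Figure D2:**
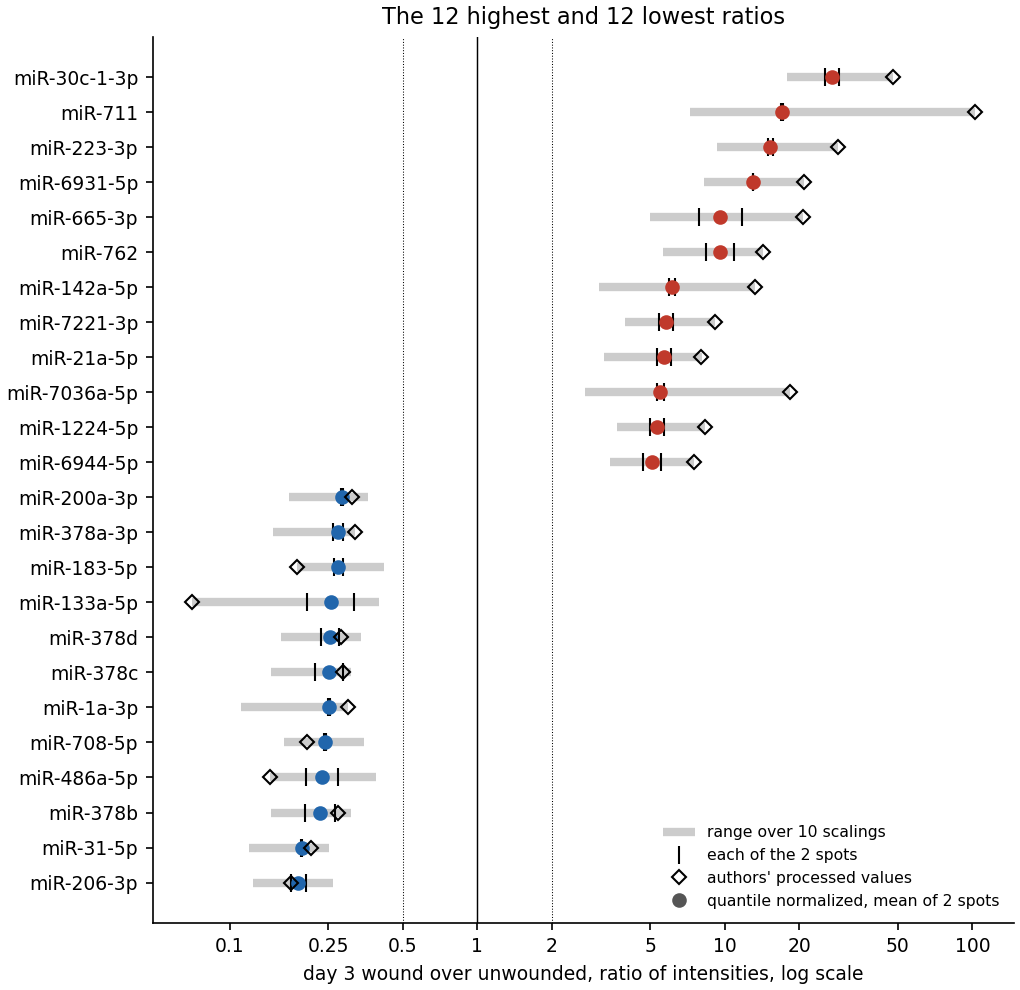
Ratio of D3 over D0 on a log scale for the 12 highest and 12 lowest bright miRNAs with the same direction in both spots and in the authors' processed values; circles are quantile-normalized means, ticks the 2 spots, diamonds the authors' processed values, and grey bars the range over 10 scalings. Each of the 24 bars stays on its side of 1 and past 2-fold, the shortest reach among the rises being 2.74 for miR-7036a-5p.

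In the leukocyte list, 3 members were at least 2-fold higher. miR-223-3p, abundant in neutrophils and monocytes, had a normalized intensity of 247 at D0 and 3772 at D3, a ratio of 15.3 and at least 9.27 under each scaling. miR-142a-5p, made in blood-forming cells, had 118 and 723, a ratio of 6.11. The other arm, miR-142a-3p, had 74.7 and 218 and was at least 2.39-fold higher, being not above the empty spots at D0. These 3 were bright at D3 only, so they entered through the array on which they are high. miR-150-5p and miR-342-3p, typical of lymphocytes, had 0.743 and 0.982. Thus 3 of 5 bright members of the 6 were at least 2-fold higher (17.7% of all bright miRNAs were) and 0 at least 2-fold lower. The list has no median beyond a bound, since its middle value is that of miR-142a-3p, and over the scalings the middle value ran from 1.35 to 13.2.

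These ratios were lower against unwounded skin of 8-week-old mice. miR-223-3p was 3.71-fold higher at D3 than on that array, miR-142a-5p 1.64-fold, and miR-142a-3p had 0.616. The D0 array of 2-year-old skin was therefore the lowest of the 5 arrays for these 3 miRNAs, with 247, 118 and 74.7 against 1016, 441 and 354 in 8-week-old skin.

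miR-21a-5p, a miRNA raised in many inflamed and regenerating tissues, had 2325 at D0 and 13263 at D3, a ratio of 5.70. It was the only one of 5 bright inflammation-induced miRNAs past 2-fold, where 17.7% of all bright miRNAs were at least 2-fold higher. The median of the list was 1.75, and it ran from 0.984 to 2.49 over the scalings. miR-155-5p, made by activated leukocytes, had 1.84, and miR-132-3p had 1.13. miR-146b-5p had 820 and 1433, a ratio of 1.75, and miR-146a-5p had 2004 and 1075, a ratio of 0.536. These are 2 edits apart with 1 seed, and both damp signalling to NF-kB. The ratio of miR-210-3p, which hypoxia induces, was 1.31 against D0 of 2-year-old skin and 3.62 against 8-week-old skin. miR-340-5p, in no list, was at least 4.08-fold higher.

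The skeletal muscle list held the lowest ratio. miR-206-3p had 1664 at D0 and 316 at D3, a ratio of 0.190, or 5.27-fold lower. miR-1a-3p, which shares its seed, had 7738 and 1956, a ratio of 0.253. miR-133a-3p and miR-133b-3p, which differ by 1 edit, had 0.342 and 0.343, and miR-133a-5p had 0.256. Of 6 bright members of the 7, 5 were at least 2-fold lower, where 12.8% of all bright miRNAs were, and the median was 0.296 against 0.967. In whole skin, fewer cells of a type and less RNA per cell cannot be told apart, here and in the lists that follow.

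miR-133b-5p was the exception in this list. Its normalized intensity was 2216 at D0 and 4630 at D3, a ratio of 2.09, while miR-133b-3p from the same hairpin went from 8982 to 3081. On the other arrays miR-133b-5p stood at 23062 in 8-week-old skin, 804 at D5 and 28349 at D7, a range that none of the other 5 bright members showed. Its ratio ran from 1.16 to 2.82 over the scalings. Outside the list, miR-7028-5p also ranged widely, with 50346 in 8-week-old skin, 17397 at D0, 31991 at D3, 3340 at D5 and 17926 at D7.

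The 5 bright miRNAs of the miR-378 list were all at least 2-fold lower, against 12.8% of all bright miRNAs. miR-378a-3p had 3172 at D0 and 871 at D3, a ratio of 0.275, and miR-378b had 2304 and 535, a ratio of 0.232. miR-378c and miR-378d had 0.253 and 0.255, and the other arm, miR-378a-5p, had 0.371. All but miR-378a-5p lie within 2 edits of miR-378a-3p, and whether 1 of these RNAs also binds another's probe was not tested. The median of 0.255 was the lowest of the lists. miR-378 is known from tissues with many mitochondria, muscle and fat among them. The smooth muscle miRNAs miR-143-3p and miR-145a-5p had 0.356 and 0.444.

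Of the keratinocyte miRNAs, miR-31-5p, which proliferating epidermis makes, had the lowest ratio. It had 2723 at D0 and 533 at D3, a ratio of 0.196 with 0.197 and 0.195 from the spots. On the array of 8-week-old unwounded skin it had 206, so that the D3 wound was 2.58-fold above that array while 5.11-fold below the D0 of its own age. miR-203-3p, which promotes differentiation of keratinocytes, had 9669 and 4136, a ratio of 0.428. miR-205-5p, an abundant miRNA of basal keratinocytes, had 19546 and 10039, a ratio of 0.514. miR-183-5p had 0.274. Its cluster neighbour miR-182-5p had 0.687, but its spots disagreed, with 1.77 and 0.267, so it has no settled direction. The median of the 5 was 0.428, and 3 were at least 2-fold lower (12.8% of all bright miRNAs).

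The miR-200 family keeps epithelial cells epithelial by lowering ZEB1 and ZEB2. Of its 5 bright members, 4 were at least 2-fold lower (12.8% of all bright miRNAs were). The other, miR-200c-3p, was at least 2-fold higher (17.7% of all bright miRNAs were). The 3 members from chromosome 4 were all lower, with normalized intensities of 1848 and 525 for miR-200a-3p (0.284), 1360 and 394 for miR-429-3p (0.289) and 2049 and 780 for miR-200b-3p (0.381). On chromosome 6, miR-141-3p was lower at 298 and 141, a ratio of 0.471 and up to 0.727 over the scalings, although it was dim. Its neighbour miR-200c-3p had 2513 at D0 and 5276 at D3, a ratio of 2.10, with 1.87 and 2.36 from the spots and 1.28 to 3.03 over the scalings. miR-200b-3p and miR-200c-3p share a seed and lie 2 edits apart, and their ratios differed 5.52-fold.

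**Figure D3:**
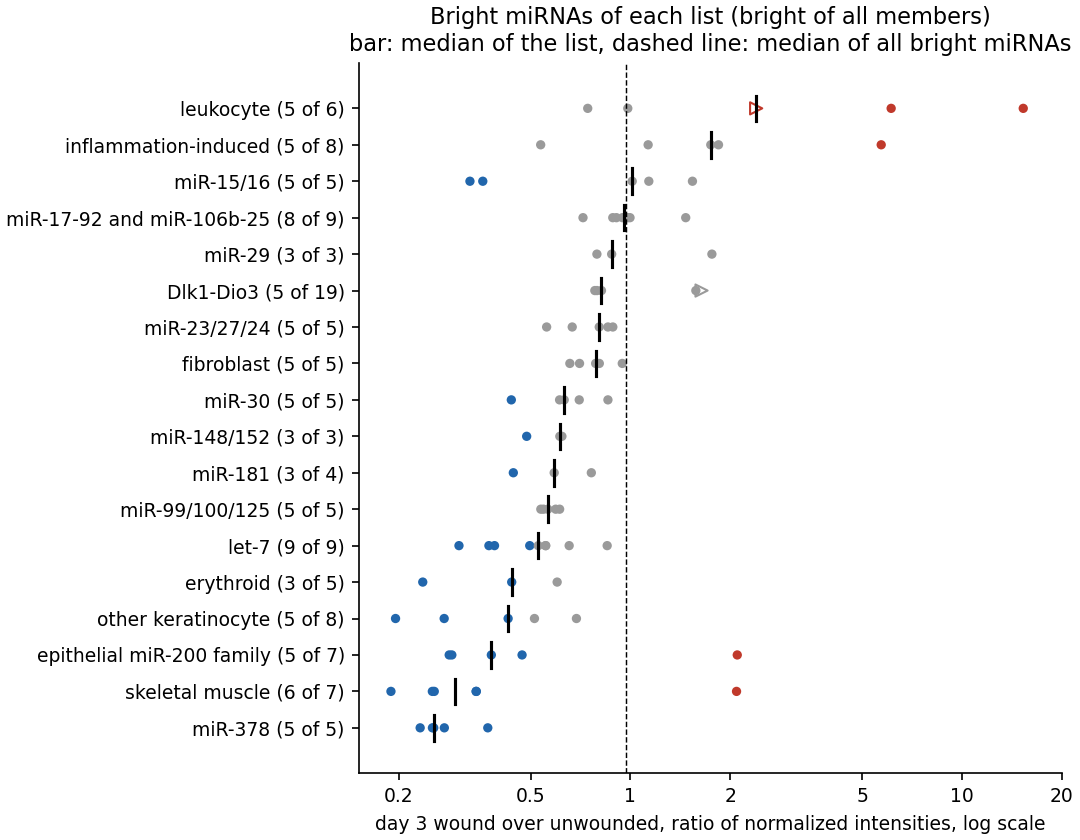
Ratio of D3 over D0 (log scale) of each bright miRNA in the lists with at least 3 bright members; each point is a miRNA, red at least 2-fold higher and blue at least 2-fold lower, an open triangle is a lower bound, the bar is the median of the list with bounds as values and the dashed line the median of all 345 (0.967). The median is lowest for miR-378 (0.255), and the miR-200 and skeletal muscle lists each hold 1 red point.

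The let-7 family, which holds back growth and is high in differentiated cells, lay below 1 in each of 9 listed members, except that let-7i-5p reached 1.11 in the authors' processed values. let-7b-5p had 4575 at D0 and 1391 at D3, a ratio of 0.304, and let-7i-5p at the other end had 2180 and 1854, a ratio of 0.851. let-7e-5p had 0.374, let-7c-5p 0.389 and let-7a-5p 0.497, and these with let-7b-5p were the 4 past 2-fold downward (12.8% of all bright miRNAs were). The median was 0.527. let-7b-5p stayed at or below 0.392 under the scalings. Members of this family differ by 1 to a few bases and whether their probes share signal was not tested.

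The erythroid miRNAs lay below 1, with 0.601 for miR-451a, 0.236 for miR-486a-5p and 0.439 for miR-486a-3p. Their median was 0.439 and 2 of the 3 bright members were at least 2-fold lower (12.8% over all bright miRNAs). These 2 are the arms of 1 hairpin, miR-486a, and neither arm of miR-144 was bright. The 5 fibroblast miRNAs, from the miR-199 and miR-214 genes, had ratios of 0.657 to 0.945, none past 2-fold. miR-126a-3p of endothelium had 0.714. The clusters miR-17-92 and miR-106b-25, which promote the cell cycle, had a median of 0.954 over 8 members, with miR-25-3p highest at 1.47. The 5 members of miR-23/27/24 had 0.559 to 0.885, and those of the miR-99, miR-100 and miR-125 group had 0.537 to 0.612.

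The miR-15/16 family, which slows the cell cycle, was split by gene. miR-195a-5p and miR-497a-5p, neighbours on chromosome 11, had 0.328 and 0.359. miR-15a-5p, miR-15b-5p and miR-16-5p, from chromosomes 3 and 14, had 1.01, 1.54 and 1.14. miR-16-5p had 6199 at D0 and 7043 at D3, and miR-195a-5p, 3 edits away, had 4344 and 1426. Of 105 bright miRNAs in any list, 8 lay at least 2-fold above D0 (17.7% of all 345 did) and 32 at least 2-fold below it (12.8% did), so that 53 of the 61 higher miRNAs lay outside the lists.

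Ratios were also set side by side for near-identical miRNAs. Among 80 pairs of bright miRNAs at most 3 edits apart, 73 had ratios less than 2-fold apart, with a median difference of 1.21-fold. Many of these pairs are of let-7 members, and 240 of all 345 bright miRNAs lay within 2-fold of D0. No such count is given for unrelated pairs, so this one is a description only. In the 7 pairs that were further apart, the members were miR-200b-3p and miR-200c-3p, miR-130a-3p (0.424) and miR-130b-3p (1.67), miR-146a-5p and miR-146b-5p, miR-30c-1-3p and miR-30c-2-3p, miR-16-5p and miR-195a-5p, let-7b-5p and let-7i-5p, and miR-29b-3p (1.76) and miR-29c-3p (0.878). Pairs 1 edit apart differed by at most 1.60-fold. Of 35 seed families with at least 2 bright members, 23 lay wholly on 1 side of 1, and 18 to 27 did over the scalings. Most of these families are pairs and no count for unrelated miRNAs is given, so this count is also a description only. The sides of miR-130b-3p, miR-29c-3p and miR-16-5p changed with the scaling, from 0.831, 0.625 and 0.561 at the lowest to above 1.

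Hairpins were also grouped by position. Of 32 groups of hairpins lying within 10 kb of each other, 23 had all bright members on 1 side of 1, and 16 to 24 did over the scalings. Most groups are pairs, and a mature miRNA made from several loci counts in each, so the count is a description only. The 5 bright members of the chromosome 14 miR-17-92 cluster had 0.885 to 0.997. Of 7 such groups on the X chromosome, 5 lay wholly above 1, with ratios of 1.06 to 1.64, and 2 wholly below it. Over the scalings 0 to 6 of the 7 lay wholly above 1, with 0 from the spike calibration controls and 2 from the 75th percentile. The 5 included Mir322, Mir351 and Mir503, and the pair Mir221 and Mir222 with 1.39 and 1.19. On other chromosomes, Mir15a with Mir16-1 and Mir15b with Mir16-2 also lay wholly above 1. Of 26 pairs of arms that were both bright, 10 lay on opposite sides of 1, and 5 to 11 did over the scalings. In 3 of the 10 both arms were past 2-fold, namely miR-30c-5p against each of its passenger arms and miR-133b-5p against miR-133b-3p. miR-346-3p had 3.18 and miR-346-5p 0.715.

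The ratio went with base composition. Bright miRNAs with a GC content of 63.6% or more, the top quartile, had a median ratio of 1.69, and 35 of 95 were at least 2-fold higher. Those at or below 43.5% had a median of 0.792, with 9 of 87. For G alone the medians were 1.80 and 0.795, with 40 of 100 and 8 of 99 at least 2-fold higher. For C alone the order was the other way, 0.801 in the C-rich quartile and 1.32 in the C-poor quartile. Over all bright miRNAs, higher ratios thus lay at the G-rich end and at the C-poor end. Among those bright on both arrays, the medians for G were 1.81 and 0.704. For C they were close, 0.744 in the C-rich and 0.819 in the C-poor quartile, with 4 of 54 and 15 of 61 at least 2-fold higher. Over all probes above the empty spots on 1 array the GC-rich to GC-poor quotient was 1.04, and among bright miRNAs 2.13.

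A run of GGG was present in 44 of the 61 higher miRNAs (72.1%), 7 of the 44 lower ones (15.9%), 133 of the 345 bright ones (38.6%) and 29.9% of all 1900 probes. The median ratio was 1.61 with the run and 0.793 without it, and 1.58 and 0.706 among those bright on both arrays. Names numbered 1000 or above, which were registered later, made up 40 of the 61 higher miRNAs and 1 of the 44 lower ones, against 134 of all 345. Within names below 1000 the median was 1.24 with GGG and 0.760 without, and within the later names 1.82 and 1.19. The 11 spike calibration controls also scanned higher at D3, and the part of such a shift between the arrays in the difference by G content was not tested.

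**Figure D4:**
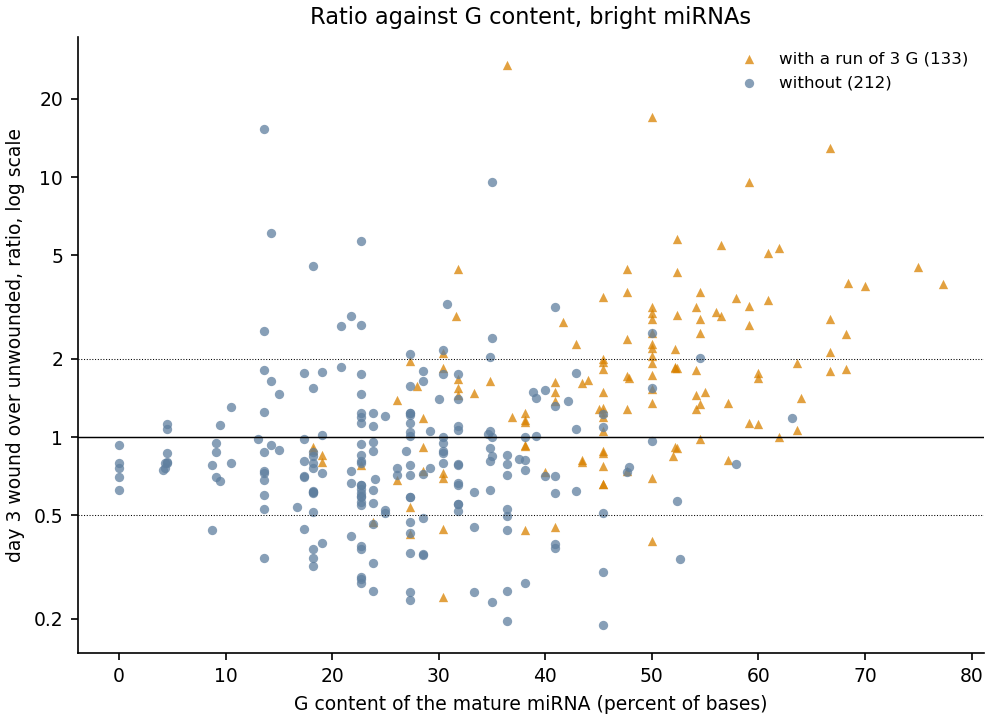
Ratio of D3 over D0 (log scale) against the share of G in the mature miRNA, for the 345 bright miRNAs; triangles hold a run of GGG (133) and circles do not (212), with dotted lines at 2-fold. Points above the upper dotted line lie mostly at high G content, while miR-223-3p and miR-142a-5p stand high with little G.

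miR-223-3p, miR-142a-5p and miR-21a-5p have 13.6%, 14.3% and 22.7% G, so the leukocyte and inflammation miRNAs named above are outside the G-rich set. miR-6965-5p, among the 4 lower miRNAs of the G-rich quartile, had 0.398. A stretch of 10 bases was shared with another bright miRNA by 27 of the 61 higher miRNAs and 28 of the 44 lower ones. Over all 345 bright miRNAs it was shared by 164, so this was no trait of the higher ones. Of 50 such groups, those below were chosen after their values were seen. The 6 bright members that share 10 bases with the miR-3473 group had ratios of 1.09 to 4.45, with 4.45 for miR-3473e and 3.00 for miR-3473b. The 5 miRNAs that share 10 bases with miR-30c-1-3p, itself included, had 1.81 to 27.1.

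The levels on the other arrays are given side by side, since the D3, D5 and D7 ratios share the D0 array. Of the 61 higher miRNAs, 21 were at least 2-fold higher at D5, 12 at D7 and 9 on both days. Over all 345 bright miRNAs, 8.99% were 2-fold higher at D5 and 8.7% at D7. D3 was the highest of the 5 arrays for 56 of the 61, and at least 2-fold above each of the others for 20. Of the 44 lower miRNAs, 18 were at least 2-fold lower at D5 (7.25% of all 345), 15 at D7 (7.54%) and 8 on both. D3 was the lowest array for 35, and at least 2-fold below each of the others for 4. The 61 were chosen for a high D3 value and the 44 for a low one. The rank of D3 among the arrays therefore follows in part from that choice, and no such count over all 345 is given here. A ratio over D0 also favours a low D0 value among the 61 and a high one among the 44. The D5 and D7 ratios use the same D0 array, so the D5 and D7 counts too follow in part from the choice.

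miR-30c-1-3p had 749 in 8-week-old skin, 406 at D0, 10983 at D3, 1614 at D5 and 1019 at D7. miR-6931-5p had 1527, 694, 9018, 1274 and 662 in the same order. Both were at least 2-fold higher at D3 than on each of the other arrays. miR-21a-5p had 3981, 2325, 13263, 9173 and 12027, high on all 3 wound arrays. miR-223-3p had 1016, 247, 3772, 2160 and 2007, also above both unwounded arrays on each day. miR-206-3p had 1537, 1664, 316, 841 and 1191, lowest at D3. miR-200c-3p had 1416, 2513, 5276, 1958 and 1418, with D3 the only array above D0.

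**Figure D5:**
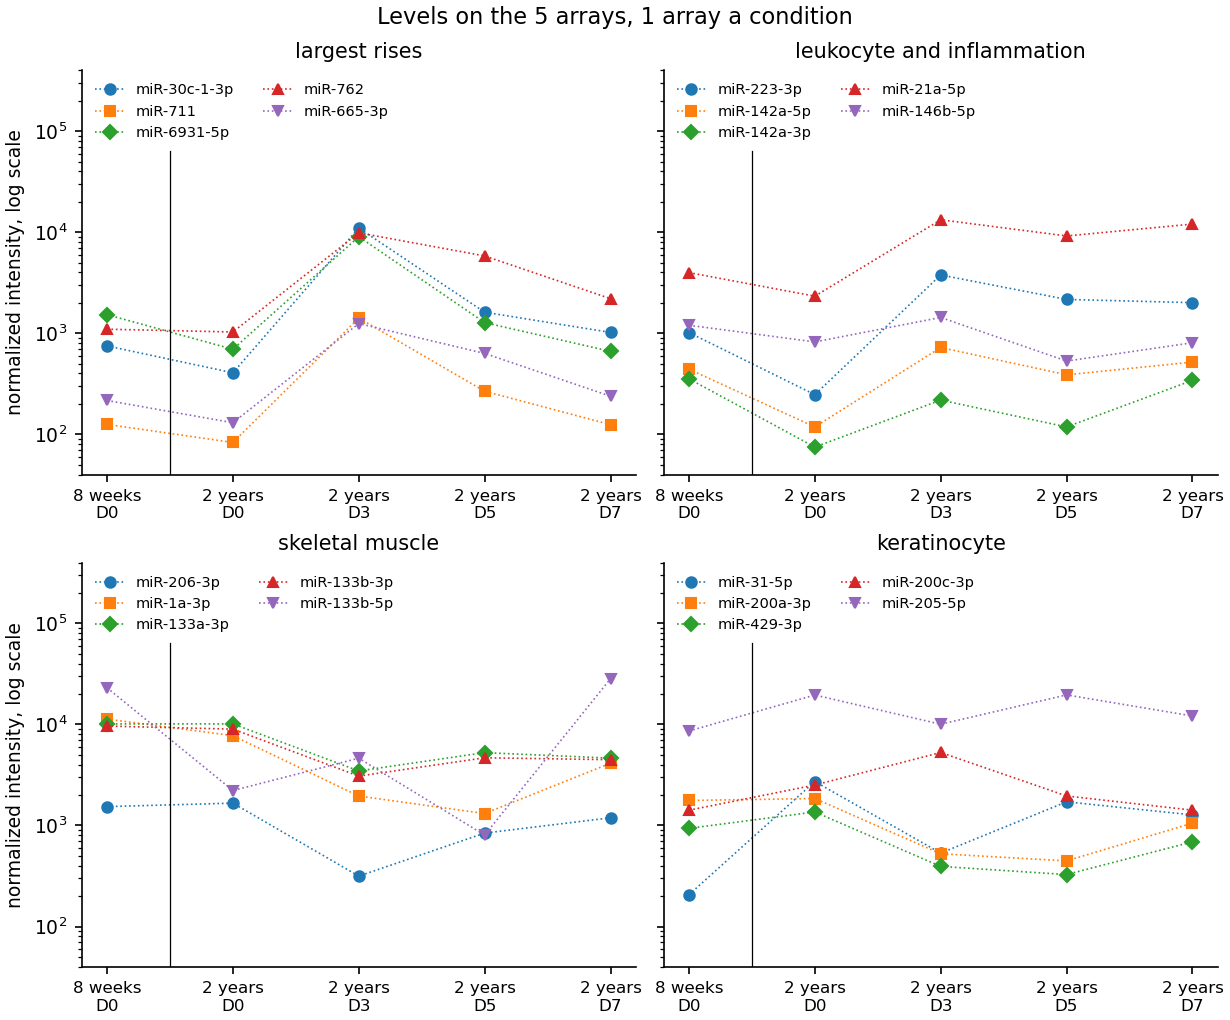
Normalized intensity (log scale) of 20 miRNAs on the 5 arrays, 1 array a condition, in 4 groups; dotted lines join the points of a miRNA for the eye and the vertical bar separates the 8-week-old array. miR-21a-5p and miR-223-3p stay high through D7, miR-30c-1-3p and miR-6931-5p peak at D3, and miR-133b-5p swings between 804 and 28349.

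Against unwounded 8-week-old skin, 46 of the 61 higher miRNAs were at least 2-fold higher at D3 (17.7% of all 345 were) and 31 of the 44 lower ones at least 2-fold lower (16.5% were). The 61 and the 44 were chosen on the same D3 array that stands in this ratio, so these counts are no second reading of D3. Past 2-fold in the opposite direction were miR-133b-5p, with 0.201, and miR-31-5p, with 2.58.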

How the data were processed

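RNA from 5 skin samples was labelled with Cy3 and hybridized, 0.5 µg each, to single-colour arrays of LC Sciences with 1900 mouse miRNAs on 2 spots each. The authors deposited scanned spot medians, an intensity on a linear scale, neither normalized nor background subtracted, and a second table of processed intensity values, whose normalization method is not given in the sources used here and which was used as an alternative with values below 1 set to 1. The local background columns are empty, so limma's normexp (offset 50) had only the spot intensities to fit. Without the control spots, log2 values were quantile normalized over 5 arrays, and the spots were averaged. Samples were grouped by their labels, and D3 was divided by D0 for miRNAs beyond 2 times the 95th percentile that the 4 empty spots gave, on at least 1 of both arrays. No test was run, with 1 array a condition, and this number limits the precision.

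The miRNAs named were the 12 highest and 12 lowest ratios with the same direction in both spots and in the processed values, the 10 brightest on each array, bright members of lists written from general knowledge, both arms of a named hairpin, and up to 3 miRNAs within 10% of the limit on each side. Others named in passing, among them miR-340-5p, miR-6965-5p, miR-346, miR-3095-3p and the pairs of near-identical miRNAs, were chosen after their values were seen. Members and lists were chosen with earlier results of these data known. Edits are single-base substitutions, insertions or deletions between mature sequences as the scanner files give them. GC quartiles, runs of GGG (these letters on the miRNA strand) and shared stretches of 10 bases came from the same sequences. Gene names, positions and overlaps are RefSeq's (GRCm38.p6). The 10 scalings were quantile, no normalization, factors from the 75th percentile, the median of all probes, the spike calibration controls, the 5S probes or the miRNAs bright on both arrays, cyclic loess, quantile over D3 and D0 alone, and the processed values. Other alternatives were offsets of 16 and 100, no background correction, subtraction of the empty spots, single spots, other brightness limits and folds of 1.5 and 3. The steps were tested on simulated arrays that shared the same background level and scale, so that test does not bear on the choice of scaling. Versions were limma 3.58.1 under R 4.3.3, and pandas 2.3.3, matplotlib 3.10.9 and numpy 2.4.6 under Python 3.11.15.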

Additional observations from a re-analysis of the deposited data

Results flagged for a closer look

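The normalized intensity of miR-133b-5p was 2.09-fold higher at D3 than at D0 and stood at 0.363 of D0 at D5. It was singled out because the 2 days moved at least 2-fold in opposite directions, both against the same D0 array. Each value rests on 1 array, and the difference between the days was not tested.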

How the results depend on the processing

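Replicates could not be left out. No paired analysis was possible because there was 1 array for each condition. The counts of 61 higher and 44 lower miRNAs and the median ratio of 0.967 depended most on the scaling. With the spike calibration controls there were 26 higher and 111 lower with a median of 0.618, and with the median of all miRNA probes 28 were lower and the median was 1.30. The authors' processed values gave 111 higher and a median of 1.18. Subtraction of the empty spots gave 103 higher, and brightness on both arrays gave 30 higher with a median of 0.781. The median was 1.11 with cyclic loess and also 1.11 over the 8-week-old unwounded array. By construction, a threshold of 1.5-fold gave 102 and 81 and one of 3-fold 31 and 16. The quotient of the median ratio at high GC content over that at low GC content, 2.13, was 1.66 with no normalization, the 75th percentile, the median of all probes, the spike calibration controls, the 5S probes and the median of the miRNAs bright on both arrays, 1.67 as scanned, 1.71 with cyclic loess, 2.43 and 1.81 with offsets of 16 and 100, 3.04 with the empty spots subtracted, and 2.75 in the processed values. It was 2.80 for miRNAs bright on both arrays and also 2.80 above 3 times the empty spots, but 1.04 above 1 time the empty spots and 1.07 without a filter. For miR-31-5p, D3 over the 8-week-old array was 2.58, which reversed its direction. The causes were not tested. Of 88 summary values, 56 stayed within the limits set, of 408 values of single miRNAs 204 did, 203 moved and 1 reversed, and of 288 list medians 156 did and 132 moved. Signal over background limits dim probes: 9 of the 61 higher miRNAs were not above the empty spots at D0, and 6 of these had a bound of at least 2-fold.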
